A study of Homo sapiens with 6 samples.

Results

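The transcriptional coactivator MYOCD (myocardin) and 5 smooth muscle contractile genes, TAGLN, CNN1, MYL9, TPM2 and ACTG2, were followed in TGF-β1-treated LX-2 cells kept with or without albiflorin (ALB). They were chosen by gene symbol, and all 6 were among the 937 genes of the deposited table. LX-2 cells are a long-established line of human hepatic stellate cells, and ALB is a monoterpene glycoside of peony root. Both groups were given TGF-β1 at 20 ng/mL for 24 h. The ALB group (n = 3 libraries) was then kept for 24 h with ALB, and the TGF-β1 group (n = 3 libraries), whose samples are labelled control, for the same time with medium alone. No source used here gives the ALB dose for the sequenced samples. Cells not given TGF-β1 were not analysed here, so no level is set against an unstimulated one. The study's methods speak in general of repeated independent experiments but do not tie this to the sequenced libraries, so p-values reflect only how these libraries spread, and that spread may be technical.

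Myocardin does not bind DNA alone. It joins the serum response factor SRF at CArG boxes, short A- and T-rich elements in the promoters of smooth muscle genes, and raises their transcription, as do the related coactivators MRTFA and MRTFB, which respond to actin polymerisation and are found in many cell types. In the liver, stellate cells that are activated by TGF-β1 take up such contractile genes on their way to a myofibroblast state. The genes described here encode an actin (ACTG2), proteins that bind or stabilise actin filaments (TAGLN, CNN1, TPM2) and a regulatory light chain of myosin (MYL9).

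The table holds whole-number counts and FPKM, the fragments scaled to transcript length and to library size. It lists only genes that the authors called with DESeq2 on these same libraries, so a call repeats that selection and is no independent evidence. The estimated depth was 35800000 to 41600000 fragments per ALB library and 33800000 to 38100000 per TGF-β1 library. At these depths the table's median log2 fold change (ALB over TGF-β1, so that negative is lower with ALB) was -0.97. The lower gene nearest to 0 had -0.88 and the higher gene nearest to 0 had 1.11, which bounds the range that the table can show. Of 19 stellate cell markers 5 were in the table and of 17 hepatocyte markers 0 were, so the hepatocyte cell type that the labels give along with LX-2 could not be checked on hepatocyte genes. The stellate markers went both ways, with COL1A2, COL3A1 and LOX lower and PDGFRA and NGFR higher with ALB. COL1A2 and PDGFRA were at a low level in both groups. COL1A2 had 0.0658 to 0.125 FPKM in ALB libraries and 0.545 to 0.667 FPKM in TGF-β1 libraries. PDGFRA had 0.418 to 0.688 FPKM in ALB libraries and 0.166 to 0.242 FPKM in TGF-β1 libraries. Of 9 epithelial markers 4 were in the table, all lower with ALB. Their summed level was 122 to 160 FPKM in ALB libraries and 289.9 to 296 FPKM in TGF-β1 libraries (2 of the 4 were also called lower under TMM). Of 9 endothelial markers PECAM1 and TEK were in the table and lower, with neither called under TMM, at a summed 0.821 to 1.03 FPKM in ALB libraries and 1.64 to 2.12 FPKM in TGF-β1 libraries. Of 11 leukocyte markers ITGAM was in it and higher, at 0.262 to 0.610 FPKM in ALB libraries and 0.142 to 0.199 FPKM in TGF-β1 libraries. All samples were of a cell line, LX-2, and whether any other cell type had a part in the results below was not tested. In bulk RNA, fewer cells that express a gene and less RNA per cell cannot be told apart.

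All 6 genes were lower with ALB, and for each of them every ALB library lay below every TGF-β1 library in FPKM. MYOCD had the largest change, at 13.9-fold, ACTG2 came next at 6.14-fold, and the other 4 lay between 1.88-fold and 2.44-fold. All 6 passed edgeR's quasi-likelihood test at an adjusted p under 0.05, as did 99.4% of the table in either direction and 56.9% as lower, so the count of calls says nothing particular about these genes. Likewise, 54.9% of the table's genes were lower in FPKM in every ALB library than in any TGF-β1 library. The median log2 fold change of the 6 genes was -1.22, against -0.97 over the table. The table's median takes in both its lower and its higher genes, so it is no background level for genes that fell. By fold among the 537 lower genes, MYOCD stood 10th and ACTG2 58th. MYL9 stood 306th, TAGLN 362nd, TPM2 404th and CNN1 514th, so these 4 fell less than most of the lower genes.

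**Figure D1:**
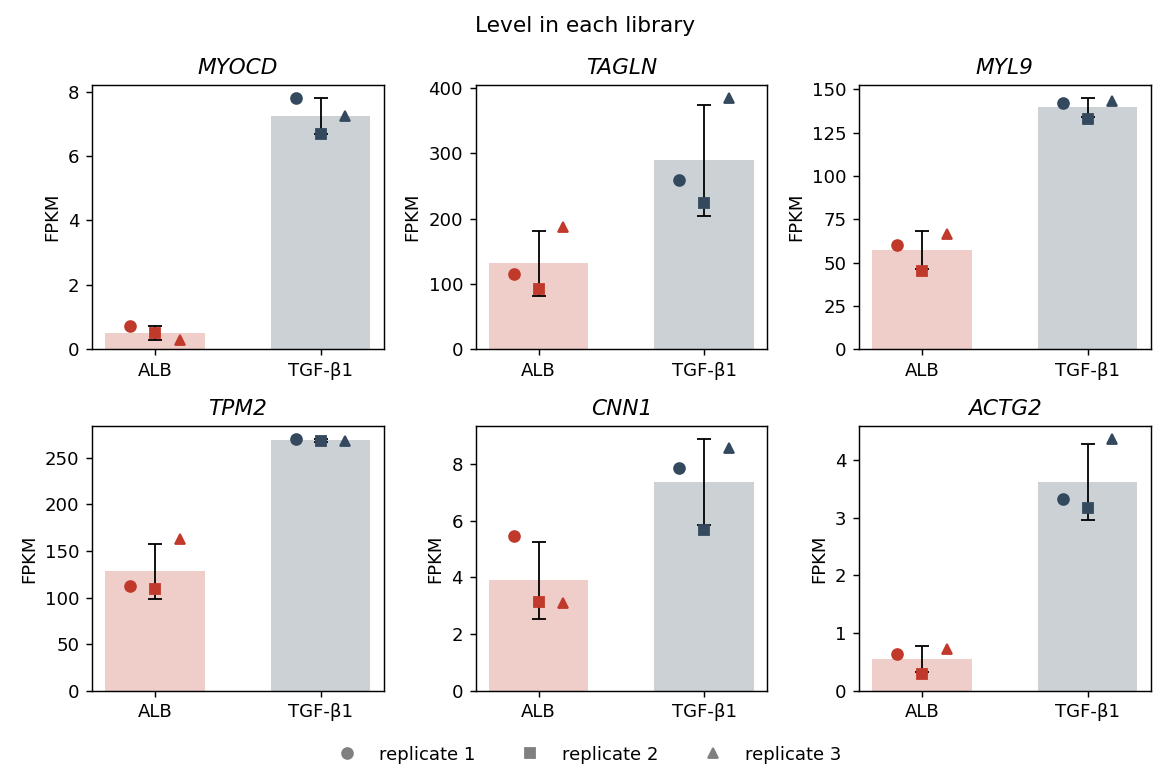
Level of each gene in FPKM (vertical axes, each from 0) in the 3 ALB and 3 TGF-β1 libraries. Points are libraries, bars are means and error bars are SD (n = 3). MYOCD stood at 0.295 to 0.736 FPKM in ALB libraries and 6.69 to 7.81 FPKM in TGF-β1 libraries, while CNN1 had the narrowest gap in proportion to its level between the groups.

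MYOCD lies on chromosome 17 from 12665890 to 12768949 on the plus strand (GRCh38, GENCODE 29). Its level was 0.736, 0.513 and 0.295 FPKM in ALB replicates 1, 2 and 3, against 7.81, 6.69 and 7.26 FPKM in TGF-β1 replicates 1, 2 and 3. The counts behind these values were 226, 157 and 105 in ALB libraries and 2507, 2001 and 2076 in TGF-β1 libraries. Each TGF-β1 library thus stood far above the highest ALB library, and the ALB libraries spread more widely in proportion to their mean. The mean was 0.515 ± 0.220 FPKM with ALB and 7.25 ± 0.561 FPKM with TGF-β1 alone (SD, n = 3 each). The log2 fold change was -3.80 ± 0.32 (SE, edgeR adjusted p = 1.83e-05), which placed MYOCD 10th by fold among the 537 lower genes. For each of the 6 genes a two-sided exact permutation test of FPKM gave p = 0.1, which no comparison of 3 with 3 libraries can go below. Of the 8875 exonic bases of MYOCD, 704 are shared with an antisense gene on the other strand, and no source used here says whether reads were counted by strand.

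ACTG2, the enteric smooth muscle actin, was the contractile gene with the largest change. It lies on chromosome 2 from 73892314 to 73919865 on the plus strand. Its level was 0.641, 0.283 and 0.717 FPKM in ALB replicates 1, 2 and 3, against 3.32, 3.17 and 4.37 FPKM in TGF-β1 replicates 1, 2 and 3. The groups stood well apart, but the ALB values rest on 35, 21 and 43 counts, while the TGF-β1 libraries had 182, 168 and 221. At 21 counts the counting error alone is 21.8% of the value. The mean was 0.547 ± 0.231 FPKM with ALB and 3.62 ± 0.653 FPKM with TGF-β1 alone, and the log2 fold change of the counts was -2.62 ± 0.31 (SE, edgeR adjusted p = 0.000111). The transcript length implied by count, FPKM and depth was 2070 bases in ALB replicate 2 and 1441 to 1522 bases in the other 5 libraries, so the FPKM of that library was computed over a longer transcript and is lower than its count alone would give. The actins are near-identical in sequence, and reads may be shared between them.

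TAGLN (transgelin, or SM22-alpha, an actin-binding protein) was the most abundant of the 6 genes. It lies on chromosome 11 from 117199321 to 117204782 on the plus strand. Its level was 115, 93.0 and 188 FPKM in ALB replicates 1, 2 and 3, against 259.6, 224 and 386 FPKM in TGF-β1 replicates 1, 2 and 3. The highest ALB library was thus not far below the lowest TGF-β1 library, and replicate 3 was the highest of its group on both sides. The mean was 132 ± 49.6 FPKM with ALB and 289.7 ± 85.0 FPKM with TGF-β1 alone (SD, n = 3 each), with a log2 fold change of -1.14 ± 0.28 (SE, edgeR adjusted p = 0.00326). Of its 3917 exonic bases, 446 are shared with PCSK7 on the opposite strand, a gene that was not in the table.

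TPM2 (beta-tropomyosin, which lies along actin filaments) is encoded on the minus strand of chromosome 9, from 35681992 to 35690121. Its level was 112, 109.6 and 163 FPKM in ALB replicates 1, 2 and 3, against 270.4, 268 and 268 FPKM in TGF-β1 replicates 1, 2 and 3. The TGF-β1 libraries were nearly alike, with a coefficient of variation of 0.509%, and the ALB libraries were not, with 23.3%. The mean was 128 ± 29.8 FPKM with ALB and 269 ± 1.37 FPKM with TGF-β1 alone (SD, n = 3 each), and the log2 fold change was -1.07 ± 0.19 (SE, edgeR adjusted p = 0.000648). Tropomyosin genes resemble each other, and reads may be shared between them.

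MYL9, the regulatory light chain of smooth muscle myosin, whose phosphorylation drives contraction, is on chromosome 20 from 36541484 to 36551447 on the plus strand. Its level was 60.5, 45.4 and 66.4 FPKM in ALB replicates 1, 2 and 3, against 142, 133 and 143 FPKM in TGF-β1 replicates 1, 2 and 3. Every TGF-β1 library was thus well above the highest ALB library. The mean was 57.4 ± 10.8 FPKM with ALB and 139.6 ± 5.73 FPKM with TGF-β1 alone (SD, n = 3 each), with a log2 fold change of -1.29 ± 0.18 (SE, edgeR adjusted p = 0.000236).

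CNN1 (calponin 1, an actin-binding protein that restrains the myosin ATPase) had the smallest change. It lies on chromosome 19 from 11538717 to 11550323 on the plus strand. Its level was 5.44, 3.13 and 3.10 FPKM in ALB replicates 1, 2 and 3, against 7.86, 5.66 and 8.57 FPKM in TGF-β1 replicates 1, 2 and 3. ALB replicate 1 nearly reached TGF-β1 replicate 2. The mean was 3.89 ± 1.34 FPKM with ALB and 7.36 ± 1.52 FPKM with TGF-β1 alone (SD, n = 3 each), with a log2 fold change of -0.91 ± 0.28 (SE, edgeR adjusted p = 0.0107). CNN1 stood 514th of the 537 lower genes by fold and lay next to the edge of the table at -0.88. At 1.88-fold it was under the 2-fold limit by which the authors chose the table's genes, so the scaling behind that choice was not the one used here.

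A promoter window, from 250 bases before to 50 bases after a gene's start, was found for 3 of the 6 genes, CNN1, TPM2 and ACTG2 (RefSeq, GRCh38.p14). Start sites here are those of RefSeq, and for ACTG2 and CNN1 they lie inside the GENCODE 29 interval of the gene given above. The windows of ACTG2 and CNN1 are shown because these were the contractile genes with the largest and the smallest change. ACTG2 covers chr2:73892758-73893057 and CNN1 covers chr19:11538601-11538900, both on the plus strand and 5′ to 3′, with exact CArG boxes in capitals.
ACTG2: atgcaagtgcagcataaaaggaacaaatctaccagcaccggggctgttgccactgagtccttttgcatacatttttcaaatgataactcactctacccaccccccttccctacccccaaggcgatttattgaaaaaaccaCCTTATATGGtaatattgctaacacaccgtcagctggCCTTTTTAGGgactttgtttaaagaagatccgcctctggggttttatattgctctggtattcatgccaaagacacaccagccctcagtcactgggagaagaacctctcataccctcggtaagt
CNN1: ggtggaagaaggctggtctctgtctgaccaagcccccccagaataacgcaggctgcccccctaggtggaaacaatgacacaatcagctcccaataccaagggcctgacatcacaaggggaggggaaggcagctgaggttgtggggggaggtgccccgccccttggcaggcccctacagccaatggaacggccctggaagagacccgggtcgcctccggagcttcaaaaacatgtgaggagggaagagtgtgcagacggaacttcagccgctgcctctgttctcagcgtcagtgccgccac
The ACTG2 window holds 2 CArG boxes, which read CCTTATATGG and CCTTTTTAGG and begin 110 and 73 bases before the start site. The CNN1 window and both TPM2 windows hold 0. The search used the 10-letter CArG box with no mismatch, which reads as a CArG box on either strand. Of all 35116 windows of this length 1.29% hold at least 1 such box and 0.0313% hold 2 or more. Among windows of the table's lower genes 2.23% hold one (13 of 583), and among those of its higher genes 0.725% do (3 of 414). The 583 windows belong to 340 genes and the 414 to 267, so windows of the same gene are not independent. The difference between these shares was not tested. The binding element of the TEAD factors, GGAATG on either strand, has 0 matches in the windows of these 3 genes and at least 1 in 14.0% of all windows. These are matches of letters in 300 bases and no evidence of binding or of its absence.

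The scaling of the libraries shifted the fold changes of all 6 genes by a like amount, which decided the call for TAGLN, TPM2 and CNN1 and not for MYOCD, ACTG2 and MYL9. TMM, the trimmed mean of M-values, assumes that most genes are unchanged, whereas all genes of this table were selected as changed. With TMM the table's median was -0.37, and with DESeq2's own size factors it was -0.27. Under TMM, MYOCD had a log2 fold change of -3.21 (adjusted p = 2.05e-05, edgeR), ACTG2 -1.98 (adjusted p = 0.000396, edgeR) and MYL9 -0.66 (adjusted p = 0.0199, edgeR). TAGLN, TPM2 and CNN1 no longer passed, with log2 fold changes of -0.49, -0.44 and -0.30 (adjusted p = 0.156, 0.0969 and 0.32, edgeR). The same 3 of 6 genes passed with DESeq2's own size factors. In the table as a whole 78.0% were called under TMM, of which the lower genes made up 35.3% of the table. For DESeq2's own size factors these values were 72.4% and 29.7%. Relative to the table's median at the estimated depths, the log2 fold change was -2.82 for MYOCD, -1.64 for ACTG2, -0.31 for MYL9, -0.17 for TAGLN, -0.09 for TPM2 and 0.06 for CNN1.

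**Figure D2:**
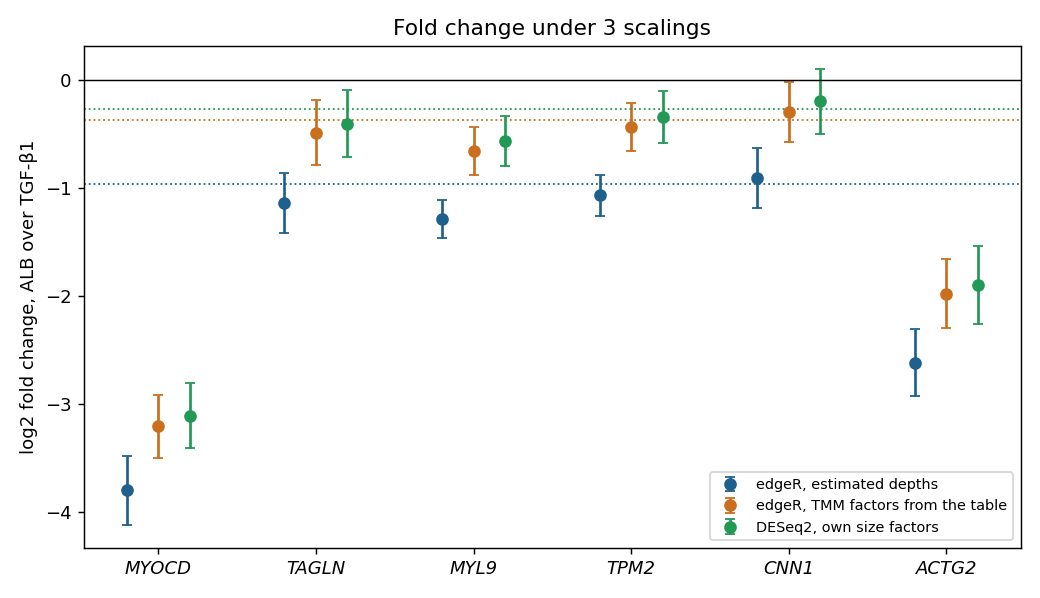
Log2 fold change of each gene, ALB over TGF-β1 (vertical axis), with its standard error, for edgeR at the estimated depths, edgeR with TMM factors and DESeq2 with its own size factors (n = 3 libraries per group). Dotted lines are the table's median under each scaling, at -0.97, -0.37 and -0.27, and only MYOCD and ACTG2 lie far below all of them.

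MYOCD was then set against each contractile gene within the same library, since such a ratio does not depend on how the libraries are scaled. Relative to TAGLN, the log2 ratio of MYOCD was -7.29, -7.50 and -9.31 in ALB replicates 1, 2 and 3, against -5.05, -5.06 and -5.73 in TGF-β1 replicates 1, 2 and 3. The difference between the group means, ALB minus TGF-β1, was -2.75 for TAGLN, -2.82 for TPM2, -2.61 for MYL9 and -2.96 for CNN1. In these 4 ratios the groups did not overlap, and each gave p = 0.1 in a two-sided exact permutation test, the smallest p that the design allows (0.125 after Benjamini-Hochberg adjustment over the 5 ratios). Relative to these 4 genes MYOCD was thus lower in every ALB library than in any TGF-β1 library, in a design that cannot reach p under 0.05. The difference between the means was larger than the SD within either group, which was at most 1.11. For TAGLN, however, the gap between the groups, from -7.29 to -5.73, was narrower than the range of the ALB libraries, from -9.31 to -7.29. Relative to ACTG2, the log2 ratio of MYOCD in FPKM was 0.20, 0.86 and -1.28 in ALB replicates 1, 2 and 3, against 1.24, 1.08 and 0.73 in TGF-β1 replicates 1, 2 and 3. These groups overlapped (difference -1.09, exact permutation p = 0.2, adjusted p = 0.2), through ALB replicate 2, in which the FPKM of ACTG2 was computed over the longer transcript noted above. In counts, which do not depend on that length, the log2 ratio was 2.69, 2.90 and 1.29 in ALB replicates 1, 2 and 3, against 3.78, 3.57 and 3.23 in TGF-β1 replicates 1, 2 and 3. The groups then did not overlap, and the difference was -1.24 (exact permutation p = 0.1, adjusted p = 0.1 over the 5 ratios in counts). In counts the other 4 ratios differed by -2.95 to -2.58 and did not overlap either. Without ALB replicate 3 the difference for ACTG2 was -0.49 in FPKM and -0.73 in counts. Whether ACTG2 differed from the other 4 genes in this was not tested.

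**Figure D3:**
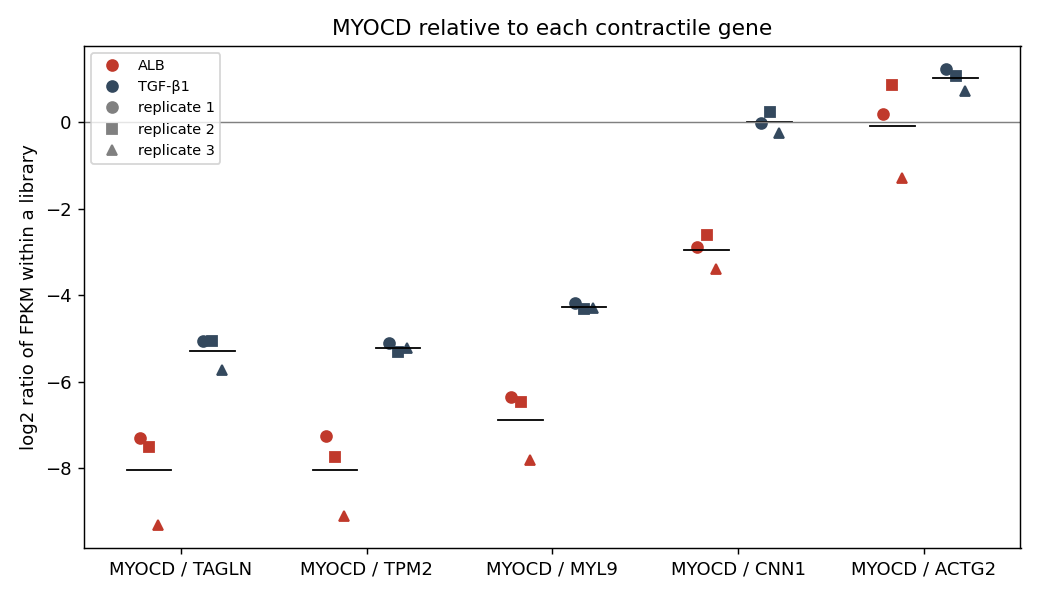
Log2 ratio of the FPKM of MYOCD to that of each contractile gene within a library (vertical axis), with points for libraries and a line at each group's mean. ALB libraries lie below TGF-β1 libraries for TAGLN, TPM2, MYL9 and CNN1 and overlap with them for ACTG2, where the groups do not overlap in counts (highest ALB library 2.90, lowest TGF-β1 library 3.23). ALB replicate 3 is the lowest in each ratio.

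In abundance, only MYOCD and ACTG2 changed places among the 6 genes by mean FPKM, and this rested on ALB replicate 3. In ALB libraries the order by mean FPKM was TAGLN, TPM2, MYL9, CNN1, ACTG2 and MYOCD, and in TGF-β1 libraries it was TAGLN, TPM2, MYL9, CNN1, MYOCD and ACTG2. TAGLN and TPM2 overlapped in their ranges in both groups. In ALB libraries MYOCD, at 0.515 FPKM, overlapped with ACTG2, at 0.547 FPKM, and lay below CNN1 in every library. MYOCD was above ACTG2 in ALB replicates 1 and 2 (0.736 against 0.641 and 0.513 against 0.283 FPKM). Only in ALB replicate 3 was MYOCD below ACTG2 (0.295 against 0.717 FPKM). In TGF-β1 libraries MYOCD overlapped with CNN1 instead, at 7.25 FPKM for MYOCD and 7.36 FPKM for CNN1, and lay above ACTG2 in every library. By mean FPKM over the table's 937 genes, MYOCD stood 723rd in the ALB group and 230th in the TGF-β1 group, whereas TAGLN stood 11th and 7th, and TPM2 14th and 9th. The summed level of the 5 contractile genes was 294, 251 and 421 FPKM in ALB replicates 1, 2 and 3, against 683, 634 and 810.2 FPKM in TGF-β1 replicates 1, 2 and 3. This sum was 626 times the mean level of MYOCD in the ALB group and 97.8 times in the TGF-β1 group.

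**Figure D4:**
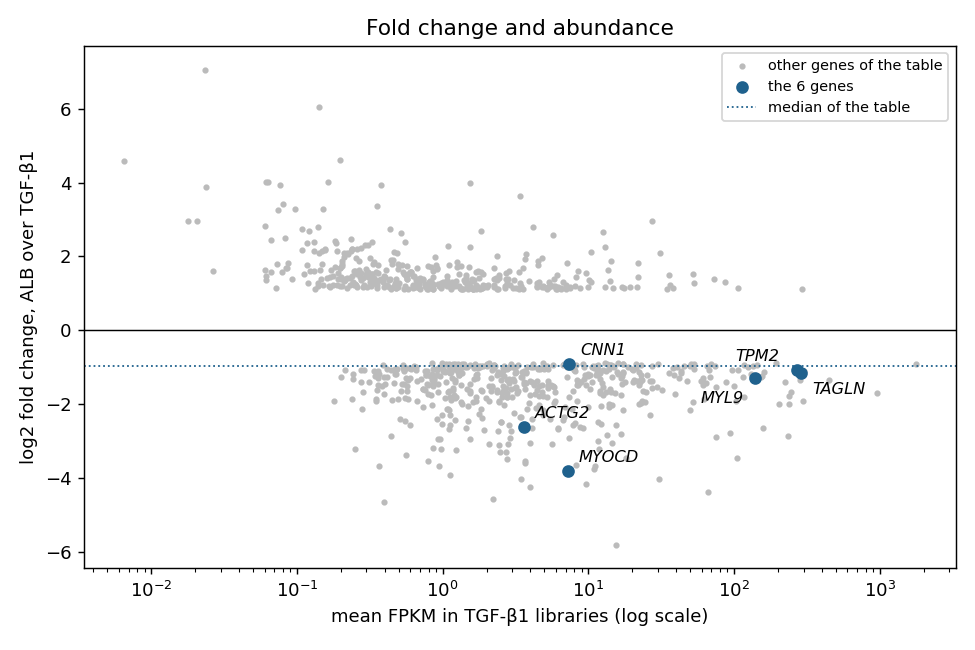
Log2 fold change at the estimated depths (vertical axis) against mean FPKM in the TGF-β1 libraries (horizontal axis, log scale) for the 937 genes of the table. The table holds no gene between -0.88 and 1.11. TAGLN, TPM2 and MYL9 are among the most abundant genes and lie near the median of -0.97, with CNN1 at the edge of the band and MYOCD and ACTG2 far below it.

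The shares of TAGLN, TPM2, MYL9 and CNN1 in the set showed no difference beyond the spread between libraries. TAGLN made up 40.2 ± 3.97% of the summed FPKM of the 6 genes with ALB and 39.9 ± 6.44% with TGF-β1 alone, TPM2 40.1 ± 3.00% and 37.9 ± 4.64%, MYL9 18.1 ± 2.37% and 19.6 ± 1.81%, and CNN1 1.27 ± 0.556% and 1.02 ± 0.129% (SD, n = 3 each). These 4 shares overlapped between the groups, with differences smaller than the spread between libraries (exact permutation p from 0.5 to 1, adjusted p from 0.72 to 1). MYOCD made up 0.174 ± 0.0932% with ALB and 1.02 ± 0.123% with TGF-β1 alone, and ACTG2 0.167 ± 0.0524% and 0.503 ± 0.0282%. For both the groups did not overlap (exact permutation p = 0.1, adjusted p = 0.3 over 6 shares).

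Within the ALB group MYOCD did not follow the abundant contractile genes. ALB replicate 3 had the lowest MYOCD level and the highest TAGLN, TPM2, MYL9 and ACTG2 levels of its group. MYOCD was 2.49 times as high in ALB replicate 1 as in ALB replicate 3, whereas TAGLN was 2.02 times as high in ALB replicate 3 as in ALB replicate 2. In the TGF-β1 group replicate 2 was the lowest for all 6 genes in FPKM, for TPM2 by a margin within its small spread. The coefficient of variation was larger in the ALB group than in the TGF-β1 group for all 6 genes. With 3 libraries per group these orders are a description and were not tested. Without ALB replicate 3 the log2 fold change was -3.52 for MYOCD, -1.46 for TAGLN, -1.27 for TPM2 and -1.40 for MYL9, so no call rested on it.

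Profiles were also compared across the 6 libraries by the root mean square distance of centred log2(FPKM + 0.1) values. The genes nearest to MYOCD among 796 with a symbol were FGF1 (distance 0.33), EDN1 (0.35), TGFB2 (0.35), DKK1 (0.37) and TRPC4 (0.38), with log2 fold changes from -4.16 for EDN1 to -3.44 for DKK1. They encode a fibroblast growth factor, endothelin 1, a TGF-β ligand, an inhibitor of Wnt signalling and a cation channel. None of the 5 contractile genes was among them: ACTG2 stood 37th at 0.75, and the other 4 stood 218th to 354th at 1.24 to 1.39. Near TAGLN stood TPM2 (6th, 0.27) and MYL9 (11th, 0.28), with CNN1 at 172nd (0.47). The 3 nearest to TAGLN were SLAMF9, SSR3 and FUOM, each at 0.24. The profiles were centred and not scaled, so this distance mainly restates the difference in fold change and adds no support to it.

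Among other genes of the contractile and SRF system, those in the table were mostly lower with ALB. Of 129 genes in 5 lists, the table held 19, and 14 of these fell and 4 rose by edgeR's test, with a median log2 fold change of -1.23. Under TMM 11 were lower and 5 higher, while DESeq2's own size factors gave 10 lower and 5 higher. Log2 fold changes of these genes are given ± SE. Since 56.9% of the table was called lower and 42.5% higher, these counts are a description of genes already selected. Genes such as ACTA2, MYH11, SRF, MRTFA and MRTFB were not in the table, so no value for them was analysed here.

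Of 32 further contractile and cytoskeletal genes 5 were in the table. Of these 4 fell and 1 rose. CALD1, caldesmon, which holds back actomyosin in smooth muscle, had 79.3, 72.5 and 60.0 FPKM in ALB libraries, against 237, 212 and 267 FPKM in TGF-β1 libraries (log2 fold change -1.78 ± 0.18). The lowest TGF-β1 library thus stood far above the highest ALB library. KCNMB1, the beta subunit of the smooth muscle calcium-activated potassium channel, had 12, 15 and 16 counts in ALB libraries and 43, 53 and 35 in TGF-β1 libraries (log2 fold change -1.67 ± 0.32), and PDLIM7, a PDZ and LIM protein of the actin cytoskeleton, had a log2 fold change of -1.23 ± 0.19. TNS1, tensin 1, which links actin to adhesions, was the fourth that fell, a call that it lost under TMM (edgeR adjusted p = 0.0896).

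All 5 genes in the table out of 18 other SRF targets fell, and all 5 still passed under TMM and with DESeq2's own size factors. THBS1, thrombospondin 1, had 29.3, 23.3 and 23.2 FPKM in ALB libraries, against 162, 132 and 181 FPKM in TGF-β1 libraries (log2 fold change -2.65 ± 0.19). ANKRD1, a muscle ankyrin repeat protein, had a log2 fold change of -2.78 ± 0.28, EGR2, an immediate-early zinc finger factor, -2.07 ± 0.41 and CCN2 -1.65 ± 0.17. Several of these genes are also raised by YAP and TEAD or by Smad proteins, so the list does not stand for SRF alone. Of 27 regulators of SRF and myocardin 2 were in the table. JAG1, a Notch ligand, fell with a log2 fold change of -0.92 ± 0.15 but did not pass under TMM (edgeR adjusted p = 0.0947), and MEF2B, a MADS-box factor, had 1.12 ± 0.50 and did not pass (adjusted p = 0.0532, edgeR).

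Genes that set the contractile state of myosin went both ways. Of 31 such genes 4 were in the table. Of these 2 rose and 2 fell, and not all are reported here by name. EDNRA, a receptor of endothelin 1, rose, with a log2 fold change of 1.64 ± 0.34 on 54, 81 and 73 counts in ALB libraries and 16, 28 and 19 in TGF-β1 libraries. ARHGAP18, which turns RhoA off, fell with a log2 fold change of -1.41 ± 0.17. PPP1R14A, an inhibitor of myosin phosphatase, had 31, 47 and 28 counts in ALB libraries, against 62, 42 and 98 in TGF-β1 libraries. These groups overlapped, and its fall (edgeR adjusted p = 0.0366) no longer passed under TMM (edgeR adjusted p = 0.303). Of 21 TGF-β receptor and Smad pathway genes 3 were in the table. SMURF2, a ubiquitin ligase that limits Smad signalling, and LTBP2, a latent TGF-β-binding protein family member, fell (log2 fold change -1.40 ± 0.16 and -1.23 ± 0.20), and BAMBI, a decoy receptor, rose (1.24 ± 0.19).

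Of 35 listed markers of skeletal and cardiac muscle, some of which myocardin can also raise in heart, 1 was in the table. NPPB, which encodes the natriuretic peptide BNP, had 11, 8 and 6 counts in ALB libraries and 86, 52 and 138 in TGF-β1 libraries, with a log2 fold change of -3.53 ± 0.49. The list does not hold every gene of striated muscle, and the table also had JPH2, MYPN and TCAP, with log2 fold changes of -1.57, -1.24 and 1.27. Of 8 mural cell markers ABCC9, a subunit of a potassium channel, was present, with a log2 fold change of -1.39 ± 0.21.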

How the data were processed

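Messenger RNA was selected from total RNA of 6 LX-2 samples on oligo(dT) beads and sequenced (Illumina). The authors deposited whole-number counts and FPKM per gene for the 937 genes they called with DESeq2 (fold change over 2, P under 0.01). CASAVA 1.4 appears in the submitters' processing notes, as do mm9 and mm10, which are mouse builds, although the gene names are human. The aligner, counter, human build and strandedness are not given in any source used here. Columns were matched to samples by group initial and number, and within the TGF-β1 group by number alone, on which no mean depends. Since the table is only part of each library, library depth was derived from the ratio of count to FPKM in 565 genes (minimum 50 counts per library), scaled on 41 genes with a single GENCODE 29 transcript. With those depths as library sizes, counts were fitted in edgeR 4.0.16 under R 4.3.3 (quasi-likelihood, group only, no filter on low values), with Benjamini-Hochberg adjustment over 937 genes. The SE of a log2 fold change is its size divided by the root of F. All 6 genes had a mean of at least 1 FPKM. Ratios and shares used exact permutation tests (scipy 1.17.1). DESeq2 1.42.0 and limma 3.58.1 served as alternatives, and the count tests were tried on simulated data first.

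The 6 genes and all lists were chosen with earlier results of these data known. Named genes are the 6, up to 4 genes of each list with the largest fold changes, and the genes nearest in profile to MYOCD (5) and TAGLN (3) among those with at least 10 counts on average, except for some that are not reported here. Paralogs in the table (ACTBL2) are named as well. TNS1, JPH2, MYPN, TCAP, the 5 stellate markers and the other genes under Other observations were named after their values were seen. Positions come from GENCODE 29 by symbol. The counting error given for ACTG2 covers counting only, whereas SDs and SEs include the spread between libraries. Alternatives were other scalings and tests, a filter at a mean of 1 FPKM, the replicate number as a block and each library left out.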

Additional observations from a re-analysis of the deposited data

How the results depend on the processing

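All 6 genes stayed lower with ALB under each alternative scaling, test, filter, block and left-out library. MYOCD, ACTG2 and MYL9 passed under all of them. TAGLN, TPM2 and CNN1 passed under all but TMM (-0.49, -0.44 and -0.30 on the log2 scale, with edgeR adjusted p = 0.156, 0.0969 and 0.32) and DESeq2's own size factors (-0.41, -0.35 and -0.20, with DESeq2 adjusted p = 0.226, 0.178 and 0.516). The count of the 6 genes called lower was then 3 under either scaling. In the table the number called lower was 533, and it was 331 with TMM and 278 with DESeq2's own size factors. The number called higher was 398, and it was 241 with a minimum mean of 1 FPKM, where fewer genes are tested. Leaving out 1 library at a time gave log2 fold changes of -4.15 to -3.52 for MYOCD, -2.77 to -2.41 for ACTG2, -1.40 to -1.14 for MYL9, -1.46 to -0.93 for TAGLN, -1.27 to -0.97 for TPM2 and -1.23 to -0.77 for CNN1. The difference in the ratio of MYOCD to ACTG2 then ranged from -1.55 to -0.49, and that to the other 4 genes stayed at -2.11 or lower. The difference in share of TAGLN ranged from -2.14 to 3.97 percentage points, that of TPM2 from -0.42 to 4.10 and that of CNN1 from -0.0341 to 0.52, so none of these has a direction. With 0.01 in place of 0.1 FPKM added, 4 of the 5 genes nearest to MYOCD were the same.

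Samples with the same number did not deviate together (correlation 0.077, 0.002 and -0.092 over the table's genes). With 3 libraries per group, and TGF-β1 columns matched by number alone, this cannot exclude pairing, which no source used here states. With the replicate block the log2 fold changes were -3.88 for MYOCD, -1.17 for TAGLN, -0.94 for CNN1, -1.31 for MYL9, -1.09 for TPM2 and -2.64 for ACTG2, all passing, and 393 genes were called higher and 532 lower.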

Other observations

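Other genes of actin and myosin in the table are given here and were named after their values were seen. That they differed between the groups repeats the table's selection, since 99.4% of its genes passed edgeR's test in either direction. ACTN2, the alpha-actinin of striated muscle Z-discs, had 0.724, 1.02 and 1.08 FPKM in ALB libraries, against 3.30, 5.36 and 3.07 FPKM in TGF-β1 libraries (log2 fold change -1.97 ± 0.28, SE, edgeR adjusted p = 0.000222). MYO7B, an unconventional myosin of brush border microvilli, had 0.461, 0.442 and 0.436 FPKM in ALB libraries, against 3.00, 2.81 and 3.09 FPKM in TGF-β1 libraries (log2 fold change -2.73 ± 0.18). PDLIM2, a PDZ and LIM protein that binds actinin, had 9.43, 6.96 and 4.63 FPKM in ALB libraries, against 18.0, 20.7 and 25.7 FPKM in TGF-β1 libraries. ACTBL2, an actin-like gene close in sequence to ACTB, had a log2 fold change of -1.09 ± 0.29 and under TMM did not pass (edgeR adjusted p = 0.107). MYH7B, a myosin heavy chain, was higher with ALB at a low level, with 0.161 ± 0.00269 FPKM against 0.0618 ± 0.00979 FPKM with TGF-β1 alone (SD, n = 3 each; log2 fold change 1.37 ± 0.31).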
